A study of Pan troglodytes with 38 samples.

Results

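Genes of adrenergic and muscarinic signalling, 9 in all, were followed across the hearts of 38 chimpanzees. They were all genes of the annotated chimpanzee gene count table whose Ensembl identifier carries the symbol ADRB1, ADRA1A, ADRA1B, CHRM2, GRK5, ADCY5, ADCY6, PDE3A or PDE4D, and each symbol matched 1 identifier, which makes 9 of 31373 genes. All 38 samples belong to 1 group, post-mortem heart tissue and 1 polyadenylated RNA library per animal, and the labels do not say which chamber was taken. The study's sample table gives the animals as 22 females and 16 males and divides them by the year of RNA extraction into an early set of 17, extracted in 4 batches, and a late set of 21, extracted in 1 batch. This split also separates previously published libraries from new ones, so the 2 cannot be told apart. The animals were born in captivity, some are first-degree relatives, some had lived in laboratories and been infected with hepatitis B or C virus, as the study notes, and they died at different ages, which limits how far they stand for 1 condition.

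The sympathetic nerves of the heart release noradrenaline, which acts on beta-1 receptors (ADRB1) coupled to the stimulatory G protein, and adenylyl cyclases (ADCY5 and ADCY6 are the main ones of heart muscle) then make cyclic AMP. Vagal nerves release acetylcholine, which acts on the M2 receptor (CHRM2), lowers cyclic AMP through an inhibitory G protein and opens potassium channels. Alpha-1 receptors (ADRA1A, ADRA1B) act through Gq and phospholipase C, the receptor kinase GRK5 shuts off activated receptors, and the phosphodiesterases PDE3A and PDE4D break cyclic AMP down.

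Levels are given here in CPM, 1000000 times the gene's count divided by the same animal's total count on orthologous exons. That total was between 14408012 and 81603350 with a median of 41226040, so counting error was small beside the spread between animals for all but the lowest values. Summed markers of heart muscle cells were between 10249 CPM in the animal Little_R and 122214 CPM, with a median of 80467 CPM. Libraries of 3 kinds stood apart. The animal 549 had an atrial profile, with BMP10, a growth factor of the atrium, at 5920 CPM where no other animal exceeded 1.32 CPM, and the ventricular light chain MYL2 at 315 CPM where the median was 12455 CPM. The animals 537 and Little_R had the lowest correlations with the other animals, and their fibroblast markers summed to 11455 and 11193 CPM against a median of 1845 CPM. The share of gene counts on the 13 mitochondrially encoded genes was at most 35.8% in 30 animals and between 40.04% and 60.1% in 8 (495, 4X0339, 4X0354, 4X0357, 529, 537, 558 and Little_R), all of the late set. Values without these libraries are given beside the results that they change, where such values were taken. Because tissue was measured in bulk, fewer cells of a type and less RNA per cell cannot be told apart in any value below.

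Among the receptors, ADRA1A was almost absent from a single animal and CHRM2 was low in several. ADRA1A (ENSPTRG00000020100), the alpha-1A receptor, had a lowest level of 0.148 CPM, a median of 58.3 CPM and a highest level of 116 CPM (57.3 ± 24.8 CPM, mean ± SD, n = 38). The lowest value belonged to 549 and rested on 7 counts, with an exact 95% Poisson interval of 0.0596 to 0.306 CPM, and the next lowest animals were Little_R at 10.7 CPM and 537 at 18.8 CPM. The library with the atrial profile was thus the one without appreciable ADRA1A, and 37 of the 38 animals had at least 6 CPM. ADRB1 (ENSPTRG00000002956), the main receptor through which noradrenaline speeds and strengthens the heartbeat, ranged from 0.486 CPM in Little_R through a median of 9.05 CPM to 23.2 CPM in 676 (9.86 ± 5.71 CPM). The 3 lowest animals, Little_R, 4X0354 (0.908 CPM) and 537 (1.16 CPM), lay below the whole early set, whose lowest value was 3.58 CPM. Animal 549 was not low for ADRB1, at 5.76 CPM.

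CHRM2 (ENSPTRG00000050632), the M2 receptor of the vagal pathway, ranged from 0 through a median of 6.78 CPM to 19.8 CPM in 4x0519 (6.95 ± 4.68 CPM). The 0 in Little_R, the shallowest library, allows a level of up to 0.208 CPM (3 counts of its total), and 558 (0.364 CPM) and 537 (0.528 CPM) were the next lowest. In the early set it was between 2.06 and 19.8 CPM, and 6 animals of the late set lay below that range. ADRA1B (ENSPTRG00000017482), the alpha-1B receptor, ranged from 0.656 CPM in 4X0354 through a median of 3.40 CPM to 9.98 CPM in 623 (3.67 ± 2.04 CPM) and reached 6 CPM in 3 animals. Its low value in 4X0354 rested on 13 counts.

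The cyclases are the enzymes on which the stimulatory and inhibitory G proteins converge. ADCY5 (ENSPTRG00000015304) had a lowest level of 109 CPM in Little_R, a median of 399 CPM and a highest level of 607 CPM in 4x0519 (391 ± 115 CPM), which were also the animals with the lowest and highest CHRM2. ADCY6 (ENSPTRG00000004885) lay between 124.1 CPM in 549 and 340.1 CPM in 676 with a median of 189 CPM (207 ± 66.7 CPM), the narrowest range of the 9 genes at 2.74-fold from lowest to highest. GRK5 (ENSPTRG00000002993) was highest in Little_R (188 CPM), 537 (151 CPM) and 495 (138 CPM) and lowest in 522 (31.8 CPM), with a median of 63.2 CPM (74.7 ± 33 CPM).

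PDE3A (ENSPTRG00000004748), the phosphodiesterase that cyclic GMP inhibits, spanned a 33.9-fold range, from 8.6 CPM in 537 through a median of 109 CPM to 292 CPM in 570 (114 ± 72.7 CPM). The low end was not 1 animal: 558, 4X0354, 529, 4X0339 and Little_R lay between 13.6 and 17.1 CPM. PDE4D (ENSPTRG00000016900), a phosphodiesterase found with beta receptors and with the calcium release channel, ranged from 2.29 CPM in 4X0339 through a median of 25.1 CPM to 191 CPM in 570 (30.9 ± 29.8 CPM). Its highest value stood alone, since the next highest animal, 4X0095, was at 53.8 CPM. Animal 570 thus held the highest level of both phosphodiesterases. Levels were not compared between genes, since no gene lengths were used here.

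**Figure D1:**
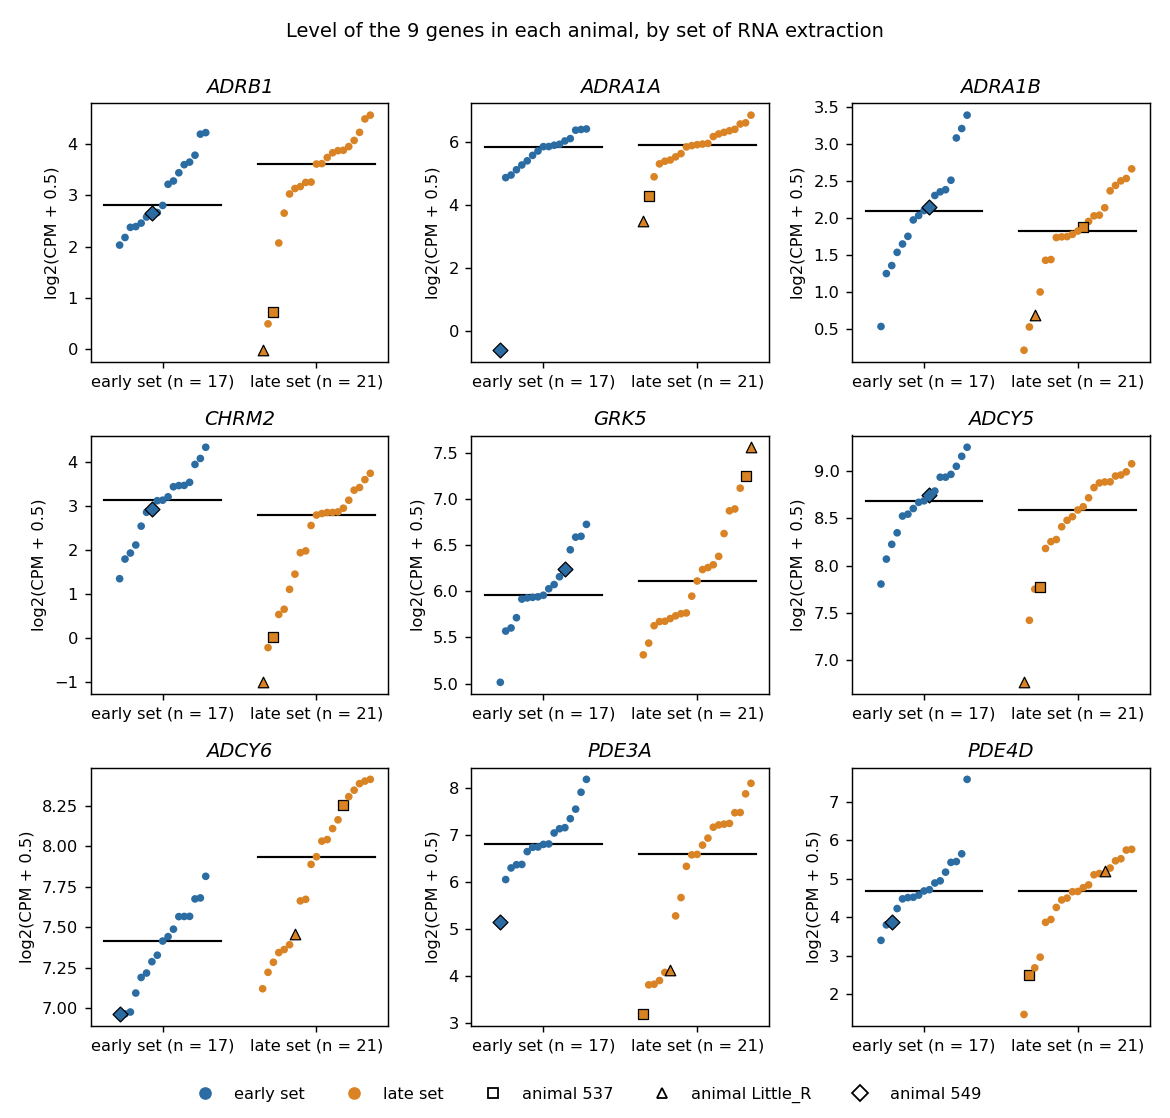
Level of each gene on the y axis as log2(CPM + 0.5) in the 17 animals of the early set and the 21 of the late set, 1 point per animal sorted within the set, with the median of each set as a black line. ADRA1A in 549 lies far below all other animals, the low tails of CHRM2 and PDE3A are made of late-set animals, and 12 of the 21 late-set animals lie above the whole early set for ADCY6.

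How variable each gene was for its level was measured as its dispersion, the residual of the natural logarithm of its overdispersion between animals from the trend on mean expression, over the 13121 genes that reached 6 CPM in any animal. All 9 genes passed that filter. Of the 9, 7 had a residual above 0, as did 44.4% of all genes, and the median of the 9 was 0.88 against −0.13 over all genes. No test was run on these values. PDE3A was the most variable of them, at 1.79 ± 0.25 (SE from 1000 redraws of the animals), higher than 96.5% of genes, followed by PDE4D at 1.52 ± 0.39, ADRA1A at 1.44 ± 0.59, CHRM2 at 1.11 ± 0.27 and ADRB1 at 0.88 ± 0.26. GRK5 was at 0.49 ± 0.24. The cyclases lay at the trend, with ADCY5 at 0.01 ± 0.31 and ADCY6 at −0.03 ± 0.16, and ADRA1B was below it at −0.27 ± 0.27.

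Single libraries set part of this order. Without 549 the dispersion of ADRA1A fell to 0.64, between the values of ADRB1 and GRK5, while it was 2.42 in the early set, which includes 549, and 0.78 in the late set. Without 570 that of PDE4D fell to 1.06. Without the 8 animals with over 40% mitochondrial counts, CHRM2 fell to 0.69 and PDE3A to 1.29, whereas PDE4D was at 1.80 and ADRB1 at 0.91. PDE3A, PDE4D, ADRA1A, CHRM2 and ADRB1 kept a residual of at least 0.64 in each set of animals named here, including each extraction set alone.

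**Figure D2:**
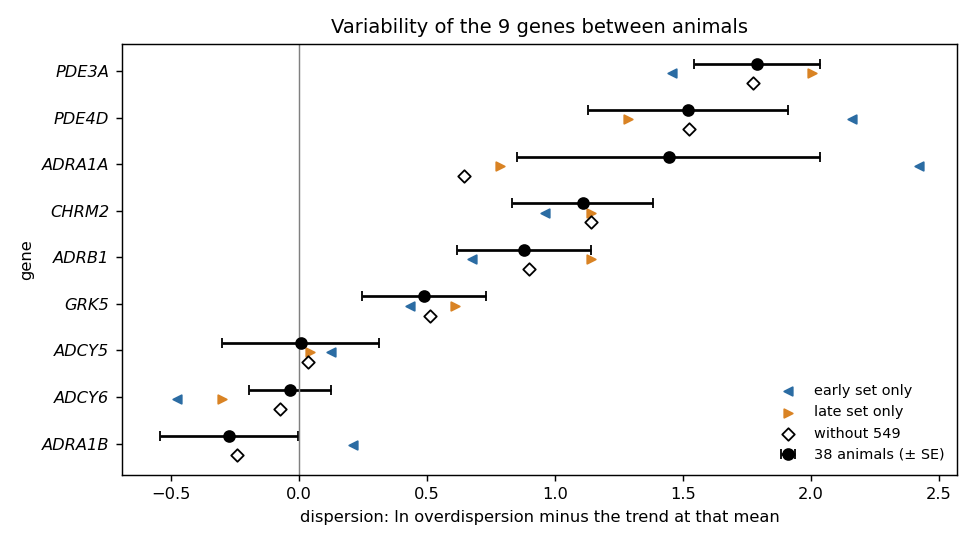
Dispersion of each gene on the x axis (natural logarithm of overdispersion minus the trend at the gene's mean) in all 38 animals with its standard error, within each extraction set and without 549. PDE3A and PDE4D lie at 1.79 and 1.52, the cyclases at the trend, and ADRA1A moves from 1.44 to 0.64 without 549. ADRA1B did not pass the expression filter in the late set alone and has no point there.

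The other genes of the pathway were taken from 10 lists by role. All 4 measured adenylyl cyclases other than ADCY5 and ADCY6 had a residual above 0, from 0.34 for ADCY9 to 2.17 for ADCY4, as did 12 of 15 other phosphodiesterases, led by PDE4B at 1.93. The G proteins were spread around the background, with 7 of 16 above 0, from −1.59 for GNAS, the stimulatory alpha subunit, to 1.94 for GNAO1. In the phospholipase C arm 4 of 8 were above 0, with PRKCE lowest at −1.49, and among receptor kinases, arrestins and RGS proteins, which end G protein signals, 4 of 10 were, with RGS4 highest at 1.48. Of the targets of protein kinase A in heart muscle 7 of 9 lay above 0 with a median of 0.80, and of the kinase itself with its anchors and Epac proteins 11 of 15 with a median of 0.48.

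The extraction sets were compared because they divide the animals technically. Of the 9 genes 1 differed, the cyclase ADCY6. It was at 167 ± 30.7 CPM (mean ± SD, n = 17) in the early set, from 124 to 224 CPM, and at 239.9 ± 70.7 CPM (n = 21) in the late set, from 139 to 340.1 CPM. The ranges overlapped, 12 of the 21 late animals lay above every early animal. Its log2 fold change, late against early, was 0.45 ± 0.12 (SE) with an adjusted p = 0.0110 in edgeR's quasi-likelihood test with sex in the model. Over all genes 15.8% passed the same threshold (2433 of 15392, 11.1% higher and 4.68% lower in the late set), so 1 of 9 members is near the background. The call held with DESeq2 (adjusted p = 0.00282, where 19.4% of genes passed) and limma-voom (adjusted p = 0.0224) and without 537 and Little_R (0.49 ± 0.12, adjusted p = 0.0064). It was lost without the 8 animals with over 40% mitochondrial counts (0.41 ± 0.13, adjusted p = 0.0617), with the mitochondrial share in the model (0.39 ± 0.14, adjusted p = 0.146) and among animals of the Yerkes center alone (0.52 ± 0.16, adjusted p = 0.0940), with a difference of similar size in each.

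The other 8 members did not pass in this comparison. CHRM2 had the largest difference, at 8.89 ± 4.92 CPM in the early set and 5.38 ± 3.93 CPM in the late set (log2 fold change −0.75 ± 0.41, adjusted p = 0.208), followed by ADRA1B (−0.48 ± 0.27, adjusted p = 0.233). PDE4D (−0.34 ± 0.33), PDE3A (−0.26 ± 0.37) and ADCY5 (−0.20 ± 0.18) had lower and ADRB1 (0.33 ± 0.32), ADRA1A (0.19 ± 0.30) and GRK5 (0.16 ± 0.16) higher estimates in the late set, with adjusted p between 0.482 and 0.709. Without the 8 animals of high mitochondrial share, ADRB1 was at 0.66 ± 0.22 with an adjusted p = 0.0808 and CHRM2 at −0.18 ± 0.27.

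Of 97 other pathway genes tested, 11 were higher in the late set, none was lower and 86 did not pass. Over all genes 11.1% were higher and 4.68% lower, so the count of 11 is near the background. An unadjusted p under 0.05 was found for 29 of the 97, against 30.6% of all genes. Of 15 phosphodiesterases tested 5 rose: PDE4C, from a median of 2.6 to 7.82 CPM (log2 fold change 2.02 ± 0.39, adjusted p = 0.000367), PDE2A (0.84 ± 0.22, adjusted p = 0.00716), PDE7A, PDE8A and PDE9A. The median log2 fold change of the 15 was 0.31, against −0.01 over all genes. The cyclase ADCY4 went from a median of 47.6 to 103 CPM (1.63 ± 0.33, adjusted p = 0.000575). RAPGEF3, the Epac protein that senses cyclic AMP without kinase A, went from 38.6 to 73.0 CPM (1.19 ± 0.23, adjusted p = 0.000479) and the kinase A anchor AKAP5 from 0.308 to 0.561 CPM (1.2 ± 0.28, adjusted p = 0.00247). ADRA2C (0.95 ± 0.26, adjusted p = 0.00969), GNAI1 (0.37 ± 0.11, adjusted p = 0.0204) and PLCB3 (0.65 ± 0.19, adjusted p = 0.0151) were the single genes that rose among 4 other receptors, 17 G proteins and 9 genes of the phospholipase C arm. No gene rose among the receptor kinases, arrestins and RGS proteins (10 tested), the kinase A targets (9), the muscarinic and pacemaker channels (4) and the genes of transmitter synthesis and clearance (7).

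All 11 passed with DESeq2, but 0 passed without the 8 animals of high mitochondrial share, where their log2 fold changes were between 0.0486 for PLCB3 and 1.02 for PDE4C, and 1 (PDE4C, 1.34) with that share in the model. Among Yerkes animals 1 passed (AKAP5, 1.5). There PDE4C (1.90), ADCY4 (1.58), RAPGEF3 (1.08), PDE7A (0.92), PLCB3 (0.71) and GNAI1 (0.32) had log2 fold changes close to those in all animals. Those of ADRA2C (0.63), PDE2A (0.51), PDE8A (0.39) and PDE9A (0.37) were smaller than in all animals. Markers of other cells moved with the extraction set as well. Of 7 macrophage markers 6 were lower in the late set (summed level 81.2 to 801 CPM in the early and 33.9 to 346 CPM in the late set), of 7 atrial markers tested 5 were lower (1087 to 53708 CPM and 268 to 16761 CPM, with 549 at the high end of the early set), and of 5 adipocyte markers 3 were higher (668 to 2041 CPM and 648 to 2405 CPM). Without 549, 1 of the 7 atrial markers was lower (SLN), and the median log2 fold change of the 7 went from −2.02 to −0.72. No marker of these lists had a median of 0, and their part in the differences was not tested.

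**Figure D3:**
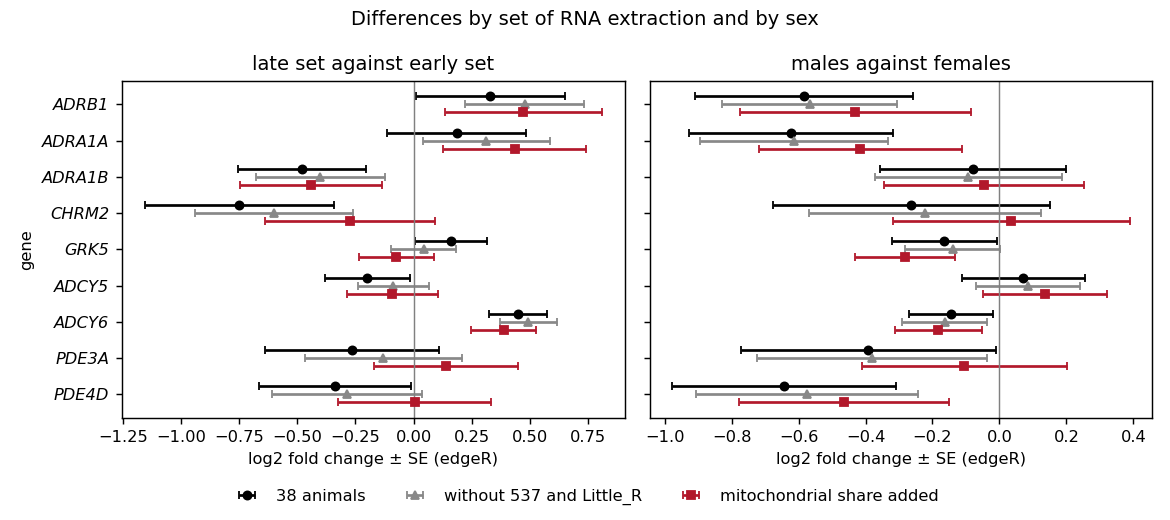
Log2 fold change with its standard error (edgeR) on the x axis for the 9 genes, the late against the early set on the left and males against females on the right, in all 38 animals, without 537 and Little_R, and with the mitochondrial share in the model. ADCY6 lies at 0.45 ± 0.12 by extraction set, CHRM2 has the widest interval, and 8 of the 9 estimates by sex lie below 0 in all 38 animals.

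No member passed the test between males and females. Over all genes 35 passed (0.227%, with 0.162% higher in males), and 8.38% had an unadjusted p under 0.05. ADRA1A was at 67.3 ± 24.3 CPM in the 22 females, from 10.7 to 116 CPM with a median of 68.7 CPM, and at 43.4 ± 18.4 CPM in the 16 males, from 0.148 to 68.9 CPM with a median of 43.7 CPM. Of the females 11 of 22 lay above every male, and the log2 fold change of males against females, −0.62 ± 0.30, did not pass (unadjusted p = 0.0477, adjusted p = 0.586). Without 549, a male, it was −0.52 ± 0.21 (adjusted p = 0.608). ADRB1 (−0.58 ± 0.33, adjusted p = 0.656) and PDE4D (−0.64 ± 0.33, adjusted p = 0.612) had estimates of the same size, and those of the other members were between −0.39 for PDE3A and 0.07 for ADCY5. The median of the 9 was −0.26, against −0.00 over all genes. Of the 8 animals of high mitochondrial share, 495, 4X0339, 4X0354, 529 and 537 were males and 4X0357, 558 and Little_R females. Of the other pathway genes 1 of 97 passed, KCNJ3, a subunit of the potassium channel that M2 receptors open in the atrium, with a log2 fold change of 2.78 ± 0.64 in males (adjusted p = 0.0428). It was at most 1.57 CPM in females, and the 3 highest males were 549 (13.2 CPM), 295 (6.03 CPM) and 503 (4.58 CPM). Without 549 the difference was 1.91 ± 0.65 and did not pass (adjusted p = 0.495), nor did KCNJ3 pass with limma-voom (adjusted p = 0.487), with RIN in the model (adjusted p = 0.0520) or with the orthologous exon total in place of TMM (adjusted p = 0.0535). All 7 atrial markers tested had a higher estimate in males, with a median log2 fold change of 2.25, and without 549 it was 6 of 7 with a median of 0.57. All 8 fibroblast markers had a higher estimate in males, with a median of 0.96, or 0.86 without 549. None of these markers passed in edgeR, and their part in the differences by sex was not tested.

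RNA integrity (RIN) and age were fitted as slopes with extraction set and sex in the model. By RIN 0 of 15392 genes passed in edgeR (0.0%), 2171 (14.1%) had an unadjusted p under 0.05, and DESeq2 called 205 (1.33%), none of them a member. Of the 9 members 2 had an unadjusted p under 0.05: GRK5 rose by 0.11 ± 0.05 on the log2 scale per RIN unit (unadjusted p = 0.0308, adjusted p = 0.306) and PDE4D by 0.23 ± 0.11 (unadjusted p = 0.0448, adjusted p = 0.341). For GRK5 the slope was 0.05 ± 0.05 without 537 and Little_R. By age, known for 34 animals, 0 of 15215 genes passed in edgeR (0.0%), 1127 (7.41%) had an unadjusted p under 0.05 and DESeq2 called 2 (0.0131%). The slopes of the members per 10 years were between −0.08 ± 0.06 for GRK5 and 0.20 ± 0.15 for PDE3A, and no member had an unadjusted p under 0.05.

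Across animals the members varied in pairs. Of the 36 pairs, 15 had a Pearson correlation of log2(CPM + 0.5) that passed a two-sided permutation test with 100000 resamples after Benjamini-Hochberg adjustment over the 36, with 12 positive and 3 negative. Pairs of other genes were not tested, so this count has no background beside it and is not read as a trait of the members. By Spearman's rho 9 passed, and 7 passed by both. Of these, 3 pairs also passed by r without the 8 animals of high mitochondrial share and within the early set alone. The phosphodiesterases PDE3A and PDE4D had r = 0.72 (adjusted p = 0.00012, the smallest these resamples gave; rho = 0.67, adjusted p = 0.00012), with 0.73 in the early and 0.73 in the late set, 0.68 without the 8 animals and 0.64 without 537 and 558, the animals farthest from the median of PDE3A. CHRM2 and ADCY5 had r = 0.71 (adjusted p = 0.00012; rho = 0.68, adjusted p = 0.00012), with 0.74 in the early set, 0.68 in the late set, 0.72 without the 8 animals and 0.65 without Little_R and 558. ADRA1A and PDE3A had r = 0.48 (adjusted p = 0.00856; rho = 0.62, adjusted p = 0.00081), with 0.69 in the early set, 0.76 in the late set and 0.60 without the 8 animals. For that last pair r was 0.40 without 537 and Little_R (adjusted p = 0.104), 0.65 without 549 and 0.62 without 549 and Little_R. The values of 0.65 and 0.62 still hold animals of high mitochondrial share. The early set and the animals left without the 8 both hold 549, the lowest of each for both genes. In these settings rho of the pair was 0.48 and 0.43, and neither was run without 549.

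For the receptor pair ADRB1 and ADRA1A the value depended on 549 as well. The pair had r = 0.47 (adjusted p = 0.0264) and rho = 0.71 (adjusted p = 0.00012) in all animals, r = 0.76 without 549, 0.45 without Little_R and 4X0354 and 0.35 without 537 and Little_R (adjusted p = 0.104). Within the sets r was 0.33 in the early (adjusted p = 0.416) and 0.79 in the late set (adjusted p = 0.00144), and it was 0.43 without the 8 animals of high mitochondrial share (adjusted p = 0.0272).

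None of the other 11 pairs that passed in all animals did so without the 8 animals of high mitochondrial share. CHRM2 and PDE3A had r = 0.76 (adjusted p = 0.00012) in all animals and 0.89 in the late set, but 0.03 in the early set and 0.10 without the 8 animals. It was 0.69 without Little_R and 558. ADRB1 went with CHRM2 (r = 0.54, adjusted p = 0.00386) and ADCY5 (r = 0.56, adjusted p = 0.00386), yet the values were −0.04 and 0.03 in the early set and 0.06 and 0.05 without the 8 animals. ADRB1 and PDE3A had r = 0.60 (adjusted p = 0.00099), 0.40 in the early set, 0.70 in the late set and 0.34 without the 8 animals. The 3 negative pairs all held GRK5, with ADCY5 (r = −0.51, adjusted p = 0.0059), CHRM2 (r = −0.47, adjusted p = 0.0103) and PDE3A (r = −0.39, adjusted p = 0.0446). Without 537 and Little_R these were −0.26, −0.22 and −0.16, and none passed. ADRA1B went with ADCY5 (r = 0.54, adjusted p = 0.00353), at 0.38 in the early set, 0.62 in the late set and 0.23 without the 8 animals. ADCY5 with PDE3A (r = 0.43, adjusted p = 0.0243), ADRB1 with PDE4D (r = 0.39, adjusted p = 0.0475) and GRK5 with ADCY6 (r = 0.38, adjusted p = 0.0481) had values of −0.0395, 0.27 and 0.30 without the 8. ADCY6 and PDE3A were at r = 0.68 in the early set (adjusted p = 0.0195) and −0.23 in the late set (adjusted p = 0.401), and this difference between sets was not tested. In all, 4 of the 36 pairs passed without 537 and Little_R and 7 without the 8 animals.

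**Figure D4:**
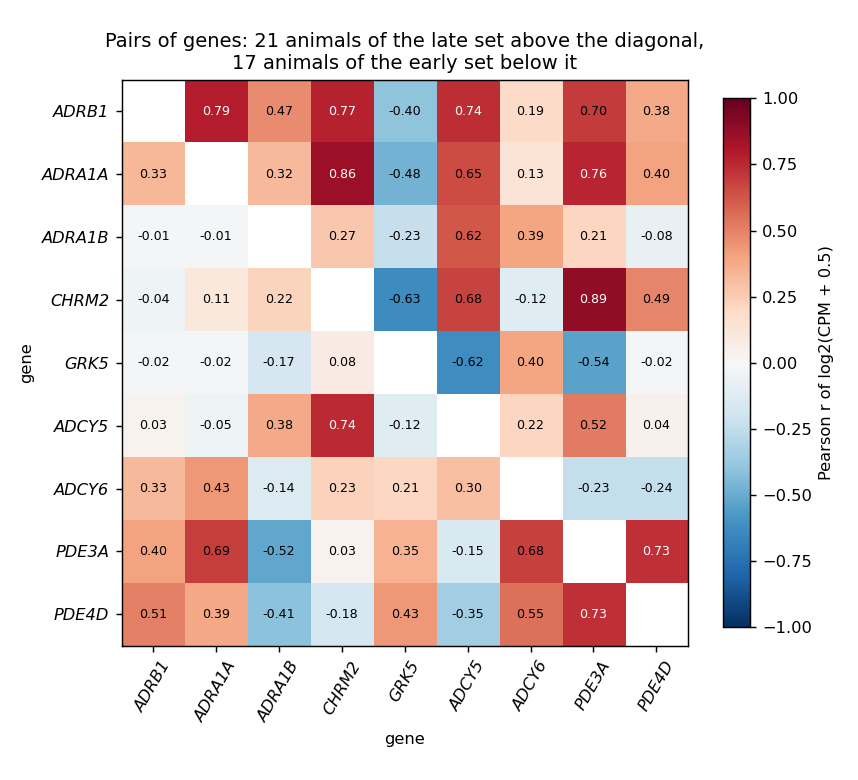
Pearson correlation of log2(CPM + 0.5) for each pair of genes, with the 21 late animals above the diagonal and the 17 early ones below it, colour and printed value giving r. PDE3A with PDE4D (0.73 and 0.73) and CHRM2 with ADCY5 (0.68 and 0.74) are alike in both, and CHRM2 with PDE3A (0.89 and 0.03) is not.

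The libraries with a high mitochondrial share were those with little PDE3A. In the 8 animals over 40% PDE3A was between 8.6 and 50.6 CPM with a median of 15.5 CPM, and in the other 30 it was between 35 and 292 CPM with a median of 127 CPM. All but 549 (35 CPM) of those 30 lay above every one of the 8. CHRM2 was between 0 and 6.77 CPM in the 8, with a median of 1.02 CPM, and between 2.06 and 19.8 CPM in the 30, with a median of 7.76 CPM, and PDE4D had medians of 10.7 and 26.3 CPM. GRK5 and ADCY6 had the higher medians in the 8, 108 against 61.0 CPM and 274 against 176 CPM. The limit of 40% was chosen after the values were seen, and these values are a description with no test.

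Over all 38 animals the mitochondrial share correlated with PDE3A at r = −0.76 (adjusted p = 6e-05 over 18 relations, the smallest these resamples gave; rho = −0.40, adjusted p = 0.0370), with CHRM2 at −0.68 (adjusted p = 6e-05; rho = −0.40, adjusted p = 0.0370), with PDE4D at −0.54 (adjusted p = 0.00315; rho = −0.34, adjusted p = 0.0849), with ADCY6 at 0.42 (adjusted p = 0.0232; rho = 0.30, adjusted p = 0.117) and with GRK5 at 0.39 (adjusted p = 0.0382; rho = 0.17, adjusted p = 0.416). Without 537 and 558, the animals farthest from the median share, r was −0.66, −0.56, −0.38, 0.31 and 0.20 for these genes in the same order, and without 537 and Little_R it was 0.17 for GRK5, which no longer passed. Without 549 alone, ADRA1A went from −0.25 (adjusted p = 0.203) to −0.54 (adjusted p = 0.00204), and ADRB1 stayed at −0.37 and passed (adjusted p = 0.0348, against 0.0528 with 549). The relations over all 38 animals rested on the 8. In the 30 others r was 0.20 for PDE3A, 0.24 for CHRM2, −0.06 for PDE4D, 0.07 for ADCY6 and −0.16 for GRK5, and none of 9 passed. Among the 8 alone, r was −0.79 for PDE3A (unadjusted p = 0.0174, adjusted p = 0.313, two-sided exact permutation test) and −0.67 for CHRM2 (adjusted p = 0.42, exact permutation test). In the early set, where no share exceeded 35%, r was 0.10 for PDE3A and 0.25 for CHRM2. With TMM library sizes in place of the orthologous exon total, r over all animals was −0.75 for PDE3A and −0.66 for CHRM2. The TMM sizes start from gene count totals that include the mitochondrial counts.

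The members were also set beside the difference in mean log2 level between 8 atrial and 6 ventricular markers. It lay between −7.16 and −4.00 in 37 animals and at 6.18 in 549, so values are given for the 37. ADRB1 had r = −0.76 (adjusted p = 6e-05) and ADRA1A −0.68 (adjusted p = 6e-05): animals with more of the atrial markers relative to the ventricular ones had less of both receptors. PDE3A (r = −0.46, adjusted p = 0.0115), ADCY5 (r = −0.43, adjusted p = 0.0143), ADCY6 (r = −0.42, adjusted p = 0.0169) and CHRM2 (r = −0.37, adjusted p = 0.0348) passed as well, and ADRA1B (−0.18), GRK5 (0.20) and PDE4D (−0.26) did not. With 549, r was −0.92 for ADRA1A (adjusted p = 6e-05; rho = −0.71, adjusted p = 9e-05) and −0.37 for ADRB1, which did not pass by r (adjusted p = 0.0947; rho = −0.72, adjusted p = 9e-05), and without 549 and 4x0519, the animals farthest from the median, it was −0.68 and −0.77. Little_R, 537, 4X0354 and 4x0519 had the highest values of the 37 (−4.38 to −4.00). Within the late set, which does not hold 549, r was −0.80 for ADRB1 and −0.77 for ADRA1A. In the early set, which holds 549, r was −0.02 for CHRM2 and 0.03 for ADCY5. Without the 8 animals of high mitochondrial share, but with 549, CHRM2 was at −0.04 (rho = −0.02) and ADCY5 at −0.01 (rho = −0.09). Neither passed there, whereas PDE3A (r = −0.61, rho = −0.40) and ADCY6 (r = −0.46, rho = −0.67) did. Members and markers were read from the same libraries. For neither library measure was a share over all genes taken, so the number of members that passed has no background beside it.

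**Figure D5:**
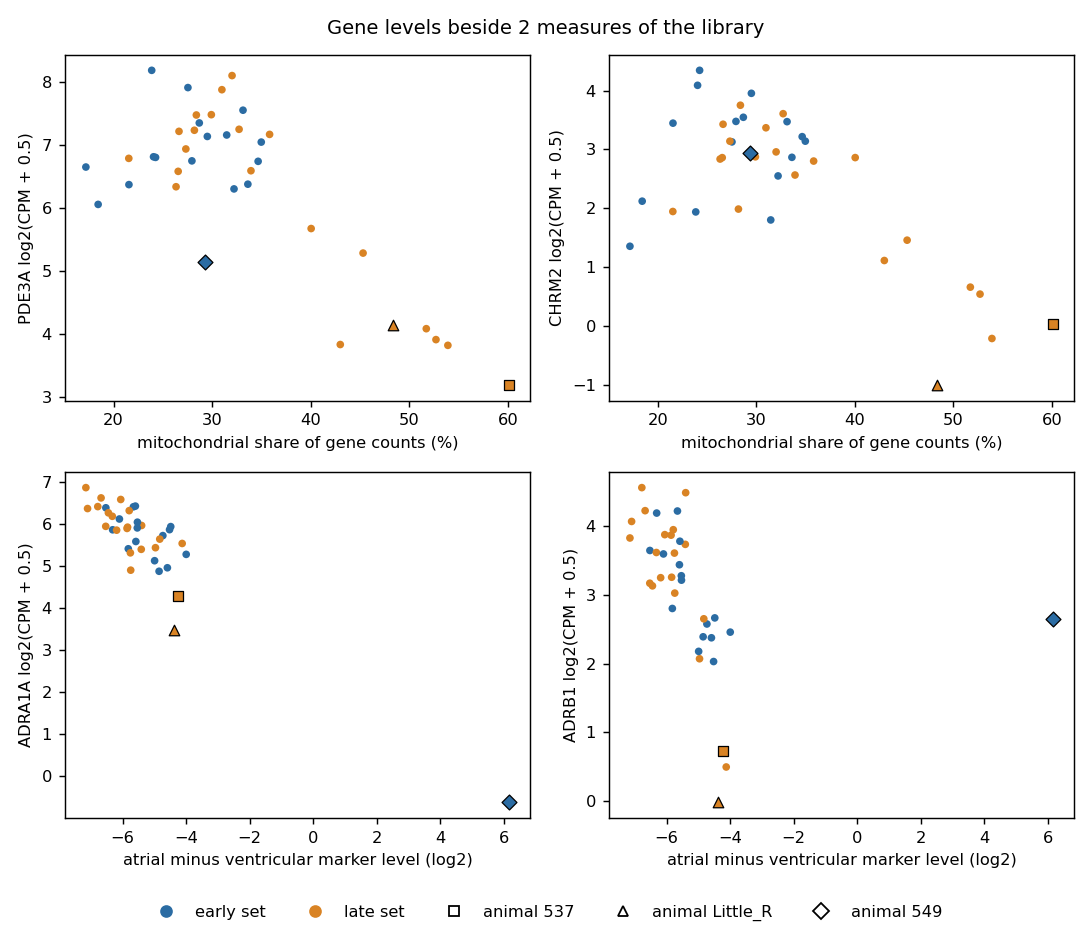
Log2(CPM + 0.5) of PDE3A and CHRM2 against the mitochondrial share of gene counts (top) and of ADRA1A and ADRB1 against the atrial minus ventricular marker level (bottom), 1 point per animal, coloured by extraction set. Above a share of 40% all points belong to the late set and are low for PDE3A, and 549 lies alone at the right of the lower plots, with ADRA1A near 0 CPM and ADRB1 within the range of the others.

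The genes whose level followed each member most closely were taken by Pearson correlation within extraction set over the 38 animals, among 10363 genes with a symbol and a mean of at least 6 CPM, as a description. For ADRA1A they were IRX4 (r = 0.90), MYL3 (0.88) and HAND1 (0.88), all on the list of ventricular markers, and without 549 they were at 0.68, 0.53 and 0.72. For ADRB1 they were VWA7 (0.87), PPM1J (0.87) and FEM1A (0.84), and for ADRA1B, with lower values, GALNT16 (0.66), the adenosine receptor gene ADORA1 (0.65) and C8orf82 (0.62). CHRM2 was followed by COX11 (0.91), the splicing regulator RBM20 (0.90) and PDZRN3 (0.90), and ADCY5 by LDB3 (0.88), a protein of the sarcomere's Z disc, VWC2 (0.87) and KCNN2 (0.86). For GRK5 they were CTDSP2 (0.81), TXLNA (0.81) and NFE2L2 (0.80), and for ADCY6 ZDHHC8 (0.72), MTA1 (0.71) and CTTN (0.68). PDE3A had the closest followers, WWP1, TMEM106B and SH3GL2 (each 0.93), and PDE4D had ARHGEF12 (0.83), RAB5A (0.81) and RNF4 (0.80). All genes of an animal are scaled by the same library total. Without 537 and Little_R the 27 values were between 0.58 and 0.92.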

How the data were processed

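Heart RNA of 38 chimpanzees was sequenced as single-end polyadenylated libraries (TruSeq v2). The authors deposited raw counts per annotated chimpanzee gene, made with STAR (2.6.1b per the labels) against Pan_tro_3.0, for 31373 genes. The strand setting is not given in the sources used here, so reads of overlapping genes cannot be told apart. The authors also deposited counts on orthologous exons (featureCounts), whose total per animal scaled CPM, and a normalized matrix with a score per gene, made by standardizing and quantile normalizing log CPM. Of the deposited columns, 52 (49 human and 3 of another chimpanzee) were not used because no sample of the series could be tied to them, so species were not compared. Extraction date (2 years, here the early and late set), sex, RIN, age and center came from the study's sample table.

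The members and lists were chosen with earlier results of these data known. Differences were tested with edgeR 4.0.16 (quasi-likelihood, TMM, filterByExpr) over all genes, with Benjamini-Hochberg adjusted p under 0.05 as the call. SE is the log2 fold change divided by the root of F. DESeq2 1.42.0 and limma 3.58.1 were alternatives. Overdispersion came from a negative binomial fit and a LOESS trend with a span of 0.75 (statsmodels 0.14.6). Each animal is 1 sample, some are related, and p-values assume independence. Genes were named by rule: the 9 members, up to 2 called genes per list and direction, and the 3 closest genes of each member. PDE7A, PDE8A and PDE9A were named beyond the rule to complete the count. Genes giving the range of a list's dispersion and marker genes of single animals were chosen after their values were seen. Intervals cover counting error only. Steps were tested on simulated data.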

Additional observations from a re-analysis of the deposited data

How the results depend on the processing

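The differences of the members by sex, RIN and age kept their side of the threshold in each alternative, and by extraction set ADCY6 lost its call in the 3 settings named with it. Counts of genes depended on the setting. By extraction set they were 3727 without a filter on low counts, 248 among Yerkes animals, 366 with the mitochondrial share as a term and 687 without animals over 40% mitochondrial share. By sex DESeq2 called 100 and no filter gave 53. By RIN DESeq2 called 205, no filter gave 2, the orthologous exon total gave 2 and the early set alone gave 15, and by age DESeq2 called 2 and no filter gave 6. With TMM library sizes the mean levels were 41.5 CPM for GRK5, 227 CPM for ADCY5 and 118 CPM for ADCY6, since the total then includes reads outside orthologous exons.

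Dispersion in the early set was 2.42 for ADRA1A, 0.21 for ADRA1B, −0.48 for ADCY6, 1.46 for PDE3A and 2.16 for PDE4D, and in the late set it was 1.14 for ADRB1, 0.78 for ADRA1A and −0.30 for ADCY6. Without 537 and Little_R ADCY6 was at 0.22. Without animals over 40% mitochondrial share ADRA1A was at 2.05, CHRM2 at 0.69, ADCY6 at 0.46 and PDE3A at 1.29. Without 549 ADRA1A was at 0.64, with a median of at least 6 CPM as filter CHRM2 was at 1.51, and with TMM GRK5 was at 0.20.

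Of 36 pairs, 4 passed without 537 and Little_R, 4 in the early set, 7 without animals over 40% mitochondrial share and 6 in the normalized matrix. Counting pairs that passed in all animals or in the alternative, in the early set the sign turned for ADRB1 and CHRM2 (−0.0442), CHRM2 and GRK5 (0.0796), GRK5 and PDE3A (0.35), ADCY5 and PDE3A (−0.15) and ADCY6 and PDE3A (0.68). Without animals over 40% it turned for ADRA1B and PDE3A (−0.52), GRK5 and PDE3A (0.0293) and ADCY5 and PDE3A (−0.0395), and in the normalized matrix for GRK5 and PDE3A (0.14). Of the 18 relations to library measures, 7 passed, 2 in the early set, 13 without 549 and 4 without animals over 40%. No share over all genes was taken for these relations. That of the mitochondrial share turned in the early set for CHRM2 (0.25) and PDE3A (0.10), and without animals over 40% for CHRM2 (0.24), GRK5 (−0.16) and PDE3A (0.20). The cause was not tested in any of these.

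The settings with the mitochondrial share, without 549, without animals over 40% and with a RIN slope per extraction set (0 genes called) were chosen after seeing the data. Levels from the orthologous exon counts were not run, since their identifiers could not be matched to the symbols here. No paired analysis was possible because all samples belong to 1 group.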

Other observations

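Some animals were extreme for many members at once. Counted over the 9 genes, 537 was among the 5 lowest animals for 6 (ADRB1, ADRA1A, CHRM2, ADCY5, PDE3A and PDE4D) and among the 5 highest for GRK5. Little_R was among the 5 lowest for 5 and among the 5 highest for GRK5. 4X0354 and 4X0339 were among the 5 lowest for 5 members each and among the 5 highest for none. At the other end, 4X0333 was among the 5 highest for 5 members (ADRA1A, ADRA1B, GRK5, ADCY6 and PDE4D), and 438 and 4X0095 for 4 each. No share over all genes was taken, so these counts have no background and are not read as a trait of the members. Little_R and 537 also had the lowest median correlations with the other animals, at 0.75 and 0.82.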
